A study of Mus musculus with 6 samples.

Results

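The 6 genes described here are Cd36, the surface receptor that takes up long-chain fatty acids, and Fabp1, Fabp3, Fabp4, Fabp5 and Fabp7, which encode cytoplasmic fatty acid binding proteins. They were chosen from measured values, since earlier results of these same arrays were known when they were picked, and each gene was represented by every probe set that the array's gene table pairs with its symbol alone. A probe set is the group of short oligonucleotides on the array that reports on 1 transcript. The 6 genes, of 18193 with a probe set of their own, had 14 probe sets, and the one with the highest mean log2 signal over the arrays is the main value of its gene. The difference between the groups is therefore a description here: no p-value is given for these 6 genes, and how many of them a fit across all genes called is stated only beside the share of all genes called.

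Expression was measured in mouse lung on 6 Affymetrix arrays, 1 for each of 3 biological replicates of 2 sorted populations. The E18 group was cells positive for Muc1 and Pdpn, sorted from fetal lungs on embryonic day 18. The series names them bipotent progenitors, that is, cells that can become type I or type II alveolar cells. The adult group was cells positive for Lyz2 and EpCAM from adult lungs, which the series calls ATII, the surfactant-making alveolar type II cells. Age and sorted population differ together, so they cannot be told apart. The strain, the genotype, the sex, the adult age, any pooling of animals and the way Lyz2 was detected were not given in the sources used here. The series set out to compare the expression of these populations.

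Long-chain fatty acids dissolve poorly in water. Cd36 helps them across the plasma membrane, acyl-CoA synthetases activate them, and fatty acid binding proteins hold them in a small barrel-shaped pocket on the way to membranes, lipid droplets, mitochondria or the nucleus, where they can act as ligands of PPAR receptors. The family members are best known from different tissues. These are liver and intestine for Fabp1, heart and skeletal muscle for Fabp3, and fat cells, macrophages and capillary endothelium for Fabp4. Fabp5 is known from skin and many other tissues, and Fabp7 from brain glia. In the lung, type II cells use fatty acids to build the phospholipids of surfactant, and alveolar macrophages clear and break them down.

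Signals are given as log2 values and differences as adult minus E18, so a negative difference is lower in the adult arrays. The 40th percentile of an array's signals served as its floor, at log2 5.40 to 6.10. It marks a rank and not a measured background. Median signals were 70.2 to 112 per array, arrays give no counting depth, and the number of arrays limits the precision. The third replicates of both groups stood apart in the poly-A spike controls added to the RNA, whose median log2 signal was 13.97 and 14.38 there and 6.24 to 9.53 on the other 4 arrays. Adult replicate 1 had a ratio of 3' to 5' Gapdh control signal, a measure of transcript completeness, of 24.6, against 4.70 to 6.18 on the others. The labels name no batch for either. E18 replicates 1 and 2 were the most alike, with a correlation of 0.983 across genes, a description with no test. Of the markers of the labelled types, Sftpc, the type II surfactant protein, was at 13.90 to 14.17 in the E18 and 14.50 to 14.67 in the adult arrays. Epcam, the epithelial adhesion protein, was at 7.85 and 8.50 in adult replicates 1 and 2 and 10.68 in replicate 3, and Lyz2 was lower in the adult group (difference -2.86, limma adjusted p = 0.00303). Pdpn, of the E18 sort, was at 11.65, 12.14 and 12.08 in the E18 and 9.80, 9.38 and 9.88 in the adult arrays (limma adjusted p = 0.00924). Muc1, also of that sort, was at 11.77, 11.94 and 11.10 against 7.92, 9.14 and 11.55 (limma adjusted p = 0.206). Of 14 tested type II markers limma called 1 lower and 0 higher, with 3 at an unadjusted p under 0.05 (median -0.13). Of 13 type I markers it called 6 lower and 0 higher, with 10 at an unadjusted p under 0.05 (median -2.27). Of 6 platelet and erythroid markers it called 0, with 3 at an unadjusted p under 0.05 (median -1.05).

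Of the 6 genes, Fabp1 stood far higher in the adult arrays, and the main probe sets of the other 5 differed by about 1 log2 unit or less. Each of the 6 passed the filter on low signals, although Fabp1 passed only through its adult arrays. By the limma fit across the 13335 genes tested, 5.98% of genes were called (adjusted p under 0.05), of which the higher calls made up 1.41% and the lower calls 4.57% of genes. Among the 6 genes 1 was called, Fabp1, and 0 were called lower. The 3 arrays of one group lay wholly apart from the 3 of the other for 28.9% of all genes, with the adult arrays above for 10.1% and below for 18.8%. On the main probe sets this held for 2 of the 6 genes, Fabp1 above and Fabp3 below. Since this contrast was known when the genes were chosen, nothing is read from these counts.

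**Figure D1:**
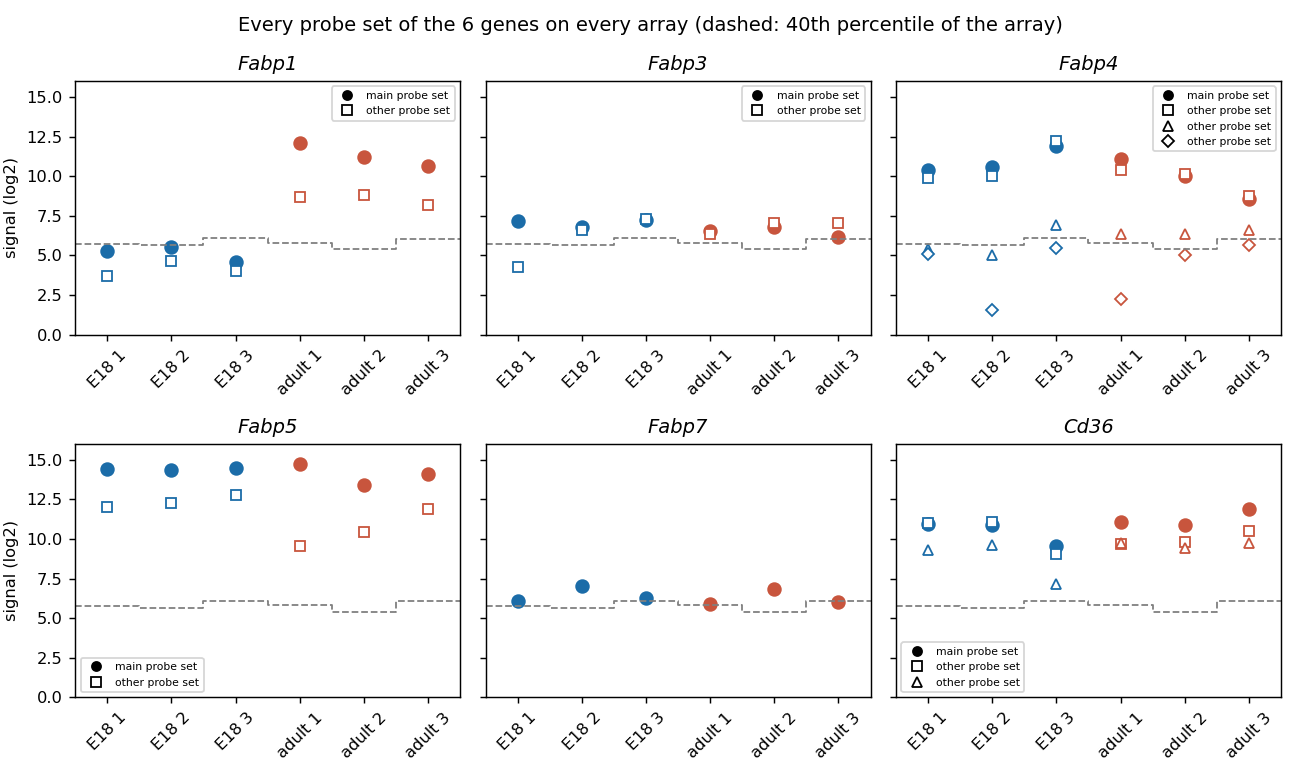
Log2 signal (vertical axis) of all 14 probe sets of the 6 genes on each of the 6 arrays (horizontal axis), with 1 panel per gene. Filled points are the main probe set, open points the others, and the dashed line is each array's floor. Fabp1 lies under the floor on the 3 E18 arrays and between 10.67 and 12.12 on the adult arrays, while the main probe set of Fabp5 is at 13.41 or above on every array.

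Fabp1, the liver-type protein, was at log2 5.30, 5.54 and 4.61 in E18 replicates 1, 2 and 3 and at 12.12, 11.21 and 10.67 in adult replicates 1, 2 and 3. In linear units these were signals of 39.5, 46.5 and 24.5 against 4439, 2366 and 1625. Every E18 array was under the floor and every adult array was far above it. The group means were 5.15 ± 0.48 and 11.33 ± 0.73 (SD, n = 3), a difference of 6.18 with a moderated SE of 0.47. With the E18 values raised to the floor, the adult group was at least 45.2-fold higher. The difference was 6.24 in replicates 1 and 2 and 6.05 in replicate 3 on the values as measured, whose E18 side lay under the floor. With the E18 values raised to the floor, a setting chosen after seeing the data, the differences were 5.96 and 4.57.

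The second Fabp1 probe set gave the same direction at a lower signal. It was at 3.67, 4.66 and 4.01 in the E18 arrays, all under the floor, and at 8.67, 8.84 and 8.17 in the adult arrays. The difference was 4.45, and at least 6.63-fold with the E18 values raised to the floor. In bulk samples such as these, fewer cells of a type and less RNA per cell cannot be told apart.

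The promoter of Fabp1 is shown because this gene went from under the floor to a bright signal, and those of the other members held in the RefSeq promoter table (build GRCm38.p6) are shown beside it. The table held 4 of the 6, and Fabp4 and Fabp5 are named only. Each sequence is the last 100 bases before the annotated start, 5′ to 3′ on the strand of the gene. They lie at chr6:71199779-71199878 for Fabp1, chr4:130308638-130308737 for Fabp3 and chr10:57784823-57784922 for Fabp7, all on the plus strand, and at chr5:17835897-17835996 for Cd36, on the minus strand. Capitals mark a TATA box spelling (TATAAA) and a direct repeat described after the sequences.
Fabp1: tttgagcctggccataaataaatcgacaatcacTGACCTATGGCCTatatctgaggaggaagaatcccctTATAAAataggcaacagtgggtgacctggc
Fabp3: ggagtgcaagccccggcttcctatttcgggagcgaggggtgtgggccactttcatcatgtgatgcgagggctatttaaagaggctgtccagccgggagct
Fabp7: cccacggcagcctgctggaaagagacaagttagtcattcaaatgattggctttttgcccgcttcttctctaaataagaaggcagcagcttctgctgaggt
Cd36: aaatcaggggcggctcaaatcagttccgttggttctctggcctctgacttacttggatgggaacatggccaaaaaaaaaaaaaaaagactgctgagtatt

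Counting back from the base before the start as -1, Fabp1 holds TATAAA at -30 to -25. On the minus strand from -67 to -55 it holds a direct repeat, the hexamers AGGNCA and AGGTCA separated by 1 base, the arrangement known for PPAR and RXR pairs. Both strands of the 250 bases before the start were searched in all 32851 promoters of the table. TATAAA was in 12.4% of them and in 1 of the 4 members. The repeat was in 0.0822% and in Fabp1 alone of the 4, and a strict repeat of AGGTCA, which no member held, in 0.0335%. The spelling with the free base was chosen after the Fabp1 sequence was read. The single hexamer AGGTCA, which overlaps the repeat, was in 14.0% of promoters and in 3 of the 4, at -67 to -62 and -9 to -4 in Fabp1, -171 to -166 in Fabp7 and -228 to -223 in Cd36, each on the minus strand. The CCAAT box (CCAAT) was in 33.8% of promoters and in 2 of the 4, Fabp7 and Cd36, and the GATA spelling GATAA in 22.6% and in 1, Fabp1. Fabp3 held none of these motifs. Its 250 bases were 64.8% G or C with 17 CG dinucleotides, against 42.8% with 2 for Fabp1, 54.8% with 4 for Fabp7, 43.2% with 3 for Cd36 and medians of 52.4% and 6 over the table. These are matches of letters and show no binding.

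Fabp1 is best known from liver and gut, so the list of hepatocyte and enterocyte markers was read beside it. Of its 11 measured genes 7 were under the floor on all 3 E18 arrays and 8 on all 3 adult arrays. The summed signal of the list was 509 to 701 in the E18 and 317 to 470 in the adult arrays. Of the 3 tested, 0 were called by limma and 1 had an unadjusted p under 0.05, with a median of -0.96. Alb, liver albumin, was at 6.69, 7.75 and 6.42 against 5.81, 5.51 and 6.66. Lgals4, an intestinal galectin, was above the floor on all 6 arrays, at up to 8.09 in the E18 group and at 6.57, 7.11 and 7.60 in the adult group. The part of liver or gut cells in the Fabp1 signal was not tested.

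Lymphocyte and dendritic cell markers were higher in the same adult arrays as Fabp1. The 11 lymphocyte markers summed to signals of 8613 to 16611 in the E18 arrays and to 63957, 54496 and 18854 in adult replicates 1, 2 and 3. Ptprc, the brightest of the list, made up most of each E18 sum. It was at log2 13.16, 12.91 and 13.84 in the E18 and 15.16, 14.32 and 13.81 in the adult arrays. Of the 11 markers limma called 4 higher and 0 lower, and all 11 had an unadjusted p under 0.05, against 21.6% of all genes. Their median difference was 3.77, with 4.98 in replicates 1 and 2 and 0.99 in replicate 3. The 10 dendritic cell and monocyte markers summed to 19261 to 30578 and 39889 to 51820. Of the 9 tested, limma called 3 higher and 0 lower, with 5 at an unadjusted p under 0.05. The part of these cells in the Fabp1 signal was not tested. The 16 alveolar macrophage markers summed to 32270 to 56244 against 56384 to 85607. By limma 1 was called higher and 0 lower, with 6 at an unadjusted p under 0.05 and a median of -0.34. The list was divided, with 6 of the 16 differences positive. Among these were Chil3 at 2.51 and Krt79, the called gene, at 2.27, while Olr1 at -1.69 and Marco at -1.50 were among the negative ones. The part of macrophages was likewise not tested. The 12 epithelial markers summed to 35866, 38544 and 43275 in the E18 arrays and to 4967, 6626 and 67290 in adult replicates 1, 2 and 3. Fabp1 ran in the reverse order in the adult arrays, highest in replicate 1 and lowest in replicate 3. Which cells of the adult samples gave the Fabp1 signal was not tested.

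The 3 tested genes with the profile most like that of Fabp1 were Klrd1, Ccl5 and H2-Ob. Klrd1 is a natural killer cell receptor, Ccl5 a chemokine and H2-Ob a chain of a nonclassical MHC class II protein. Likeness was the root mean square difference between log2 profiles over the 6 arrays, each profile centred on its own mean. It was 0.55, 0.69 and 0.74 log2 units for these genes. Klrd1, which is on the lymphocyte list, was at 6.58, 6.63 and 6.83 against 12.88, 12.54 and 11.10. The other 5 members were 2.77 to 3.72 from Fabp1 by this measure, and 0.50 to 1.67 from each other. Profiles were centred but not scaled, so a gene with a difference as large as that of Fabp1 lies far from any that differed little. Its nearest profiles likewise had large differences, 5.49 for Klrd1, 7.35 for Ccl5 and 6.13 for H2-Ob. The E18 values of Fabp1 were also under the floor, so nothing is read from these distances.

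**Figure D2:**
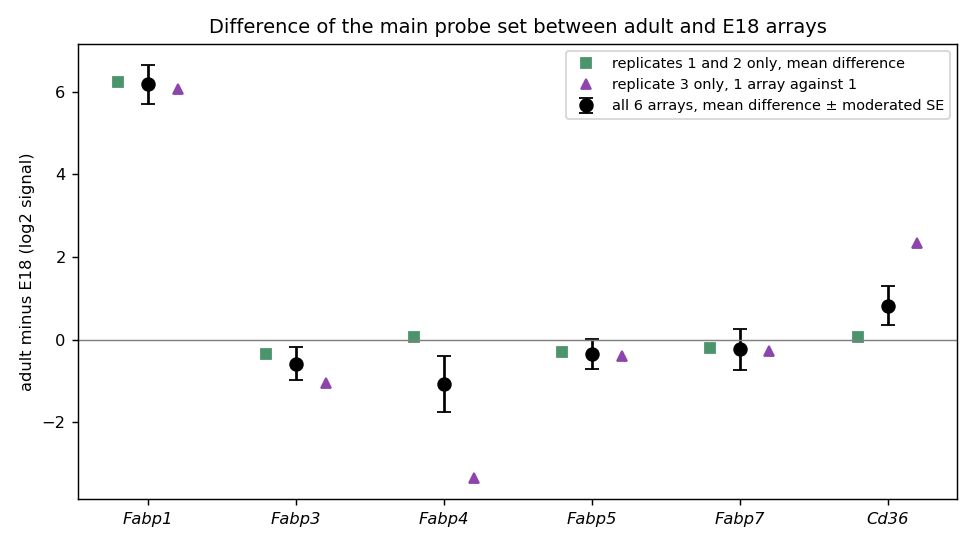
Difference in log2 signal, adult minus E18 (vertical axis), of the main probe set of each of the 6 genes (horizontal axis). Circles are the differences of means over 3 arrays a group with their moderated SE. Squares are the mean difference in replicates 1 and 2, and triangles that in replicate 3. Fabp1 lies at 6.18, while for Fabp4 and Cd36 replicate 3 lies far from replicates 1 and 2.

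Fabp4 and Fabp5 lie in a cluster on chromosome 3, in the order Fabp5, Pmp2, Fabp9, Fabp4 and Fabp12. Fabp4, the fat cell and macrophage type, was at 10.40, 10.59 and 11.90 in the E18 arrays and 11.11, 10.01 and 8.55 in the adult arrays. E18 replicate 3 was the highest array and adult replicate 3 the lowest, and the groups overlapped. The means were 10.96 ± 0.82 and 9.89 ± 1.29, a difference of -1.07 (SE 0.69). The third replicates differed by -3.35, while replicates 1 and 2 differed by 0.066.

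The second bright Fabp4 probe set showed the same split, with 0.31 in replicates 1 and 2 and -3.43 in replicate 3. It was at 9.90, 10.01 and 12.19 against 10.38, 10.16 and 8.76. The third, near the floor, was at 5.39, 5.03 and 6.90 against 6.35, 6.35 and 6.60, a difference of 0.66, and the fourth lay below the floor on every one of the 6 arrays. The bright probe sets and the dim one thus differed in sign.

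Markers of 3 cell types known for Fabp4 moved differently from one another. The 18 capillary endothelium markers summed to 45282, 49265 and 14441 in the E18 arrays and to 7244, 6277 and 5394 in the adult arrays. Of these limma called 4 lower and 0 higher, with 16 at an unadjusted p under 0.05 and a median of -3.15. E18 replicate 3 was the lowest E18 array for this list and the highest for Fabp4, and the part of endothelial cells in the Fabp4 values was not tested. The macrophage sum was highest among E18 arrays in replicate 3 (56244) and lowest among adult arrays in replicate 3 (56384), as was Fabp4. Its markers were divided in the adult arrays. Csf1r, the brightest (15.60, 14.52 and 13.11), Adgre1 and Msr1 were lowest in replicate 3. Marco (7.55, 7.92 and 9.53), Siglecf, Mrc1, Itgax, Atp6v0d2, Krt79, Mertk, Olr1 and Gpnmb were highest there, and Chil3, Cd68, Trem2 and Cd5l lay between. The part of macrophages in the Fabp4 values was not tested. The 7 adipocyte markers summed to 365 to 584 and 634 to 682, 0 of the 4 tested were called by limma and 0 had an unadjusted p under 0.05, and the defining Adipoq and Lep were under the floor on all 6 arrays.

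Fabp5, the epidermal type, was bright on every array and differed little on its main probe set. That probe set was at 14.40, 14.35 and 14.50 in the E18 and 14.73, 13.41 and 14.10 in the adult arrays. Adult replicate 1 lay above all E18 arrays and the other adult arrays below them. The means were 14.42 ± 0.07 and 14.08 ± 0.66, a difference of -0.34 (SE 0.36), which was -0.31 in replicates 1 and 2 and -0.40 in replicate 3. Leaving out adult replicate 2 gave -0.0016, leaving out adult replicate 1 gave -0.66, and quantile normalization gave -0.96.

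The other Fabp5 probe set differed more. Fabp5 has processed copies elsewhere in the mouse genome, and whether the probe sets also bind their transcripts was not tested. The second probe set was at 12.03, 12.24 and 12.74 against 9.56, 10.46 and 11.89, so all 3 adult arrays lay below the E18 arrays. The difference was -1.70, or 3.25-fold lower, with -2.12 in replicates 1 and 2 and -0.85 in replicate 3. Adult replicate 1, the array with the high 3' to 5' control ratio, was the lowest on this probe set and the highest on the main one. The part of that ratio in the gap between the probe sets was not tested.

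Cd36, the receptor of the group, was at 10.94, 10.85 and 9.55 in the E18 arrays and 11.05, 10.87 and 11.88 in the adult arrays. Replicates 1 and 2 of the groups were nearly level, E18 replicate 3 was the lowest array and adult replicate 3 the highest. The means were 10.45 ± 0.78 and 11.27 ± 0.54, a difference of 0.82 (SE 0.47). Replicates 1 and 2 differed by 0.061 and the third replicates by 2.33, the opposite direction to Fabp4 in the same pair of arrays.

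The 2 other Cd36 probe sets split between the replicates too. The second was at 11.02, 11.06 and 9.06 against 9.67, 9.82 and 10.52, lower in adult replicates 1 and 2 by -1.30 and higher in replicate 3 by 1.46, a mean of -0.38. The third was at 9.30, 9.62 and 7.13 against 9.74, 9.45 and 9.73, with 0.13 in replicates 1 and 2, 2.61 in replicate 3 and a mean of 0.96. E18 replicate 3 was the lowest array on all 3 probe sets, as it was among E18 arrays for the summed endothelial markers given above. The epithelial markers, 12 genes, summed to 35866, 38544 and 43275 in the E18 arrays and to 4967, 6626 and 67290 in the adult arrays, so adult replicate 3 was also the highest array for these. Of the 12, limma called 1 lower and 0 higher, with 3 at an unadjusted p under 0.05. Their median was -1.67, with -2.95 in replicates 1 and 2 and 0.58 in replicate 3. The part of either list in the Cd36 values was not tested.

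**Figure D3:**
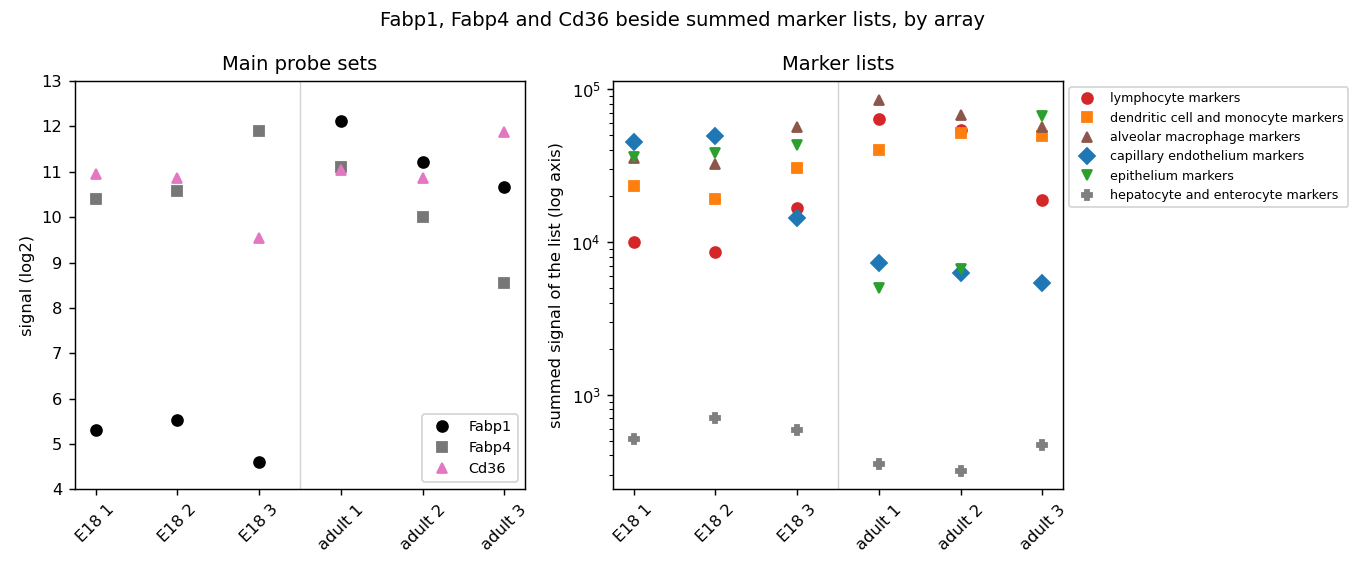
Left, log2 signal of the main probe sets of Fabp1, Fabp4 and Cd36 on the 6 arrays; right, the summed linear signal of 6 marker lists on the same arrays, on a log axis. Fabp4 is highest and Cd36 lowest in E18 replicate 3, the reverse holds in adult replicate 3, and the lymphocyte sum is 54496 or more in adult replicates 1 and 2 and 18854 in replicate 3.

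Fabp3, the muscle type, was dim in both groups, at 7.18, 6.82 and 7.25 against 6.55, 6.77 and 6.19. The adult arrays all lay below the E18 arrays, by a gap of a few hundredths between the nearest. The means were 7.09 ± 0.23 and 6.50 ± 0.29, a difference of -0.58 (SE 0.40), with -0.34 in replicates 1 and 2 and -1.06 in replicate 3. Its other probe set overlapped between the groups and had the opposite sign, at 4.26, 6.59 and 7.32 against 6.36, 7.01 and 7.05, a difference of 0.75. The mean of both probe sets differed by 0.084.

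Heart and muscle markers were read beside Fabp3. The 13 genes summed to 5627, 6649 and 1799 in the E18 arrays and to 1202 to 1659 in the adult arrays. Of 11 tested, 0 were called by limma and 6 had an unadjusted p under 0.05, with a median of -1.72. E18 replicate 3 had the lowest E18 sum and the highest Fabp3 value.

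Fabp7, the brain type, had 1 probe set, close to the floor. It was at 6.09, 7.02 and 6.28 in the E18 and 5.88, 6.82 and 5.998 in the adult arrays, and adult replicate 3 was under the floor. The second replicate was the highest array of each group, and the groups overlapped. The means were 6.47 ± 0.49 and 6.23 ± 0.51, a difference of -0.24 (SE 0.49), which turned to 0.04 without E18 replicate 2. The 8 glia and Schwann cell markers summed to 4712 to 6012 and 8186 to 13501. Cnp, the brightest, made up much of each adult sum, at 10.11, 10.15 and 11.47 against 13.52, 12.28 and 12.33. Sox10 differed by 0.006, and Erbb3, the called gene, by -2.37. Of the 7 tested, limma called 0 higher and 1 lower, with 2 at an unadjusted p under 0.05 and a median of 0.31.

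The 3 nearest profiles were also taken for each of these 5 genes. They were 4921524J17Rik (0.092), Zfp715 (0.12) and Dubr (0.12) for Fabp3, and Myoz3 (0.36), Kcnh1 (0.38) and Amhr2 (0.39) for Fabp4. For Fabp5 they were Pxmp4 (0.053), Kansl1l (0.095) and Ankrd34a (0.13), for Fabp7 Gba2 (0.17), Tpmt (0.17) and Nemp1 (0.19), and for Cd36 Lingo1 (0.17), Abcc8 (0.20) and D130020L05Rik (0.22). The value in brackets is the root mean square difference in log2 units over 6 arrays. A flat profile has many near neighbours, so the distances of different genes are not compared.

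Genes lying beside the members on their chromosomes were examined too. Of 22 genes within 2 places of a member, 16 were tested. By limma 0 of the 16 were called and 3 had an unadjusted p under 0.05, against 21.6% of all genes tested.

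Other intracellular lipid binding proteins were mostly under the floor. Of the 10 listed 9 were measured and 1 was tested, Fabp12, with 0 called by limma and 0 at an unadjusted p under 0.05. Fabp2, the intestinal type, Fabp6, the bile acid binding type, Fabp9, the retinoic acid binding proteins Crabp1 and Crabp2 and the retinol binding Rbp7 were under the floor on all 6 arrays. Pmp2, the myelin protein of the family, reached 7.15 in adult replicate 2 and Rbp2, of the gut, 6.78 in adult replicate 1, and both were under the floor on the other 5 arrays. Fabp12 was at 7.04, 6.67 and 5.97 against 6.12, 5.64 and 6.65, with overlapping groups and a difference of -0.42 (SE 0.50, limma adjusted p = 0.672).

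Around the members, few genes of fatty acid handling were called. The 6 lists of such genes held 133 genes, of which 120 were measured and 100 tested. By limma 2 rose and 3 fell, 2% and 3% beside 1.41% and 4.57% of all genes. Their median difference was -0.22 and that of all genes -0.17. At an unadjusted p under 0.05 there were 25 of the 100, and 33% had groups that did not overlap, beside 21.6% and 28.9% of all genes. The counts changed when single arrays were left out, as did those of all genes, 188 higher and 610 lower in the main fit. In the lists 0 were higher and 0 lower without E18 replicate 1 or E18 replicate 2. Over all genes these were 24 and 45, and 24 and 42. Without E18 replicate 3 they were 0 and 2 in the lists beside 111 and 394. Without adult replicate 1 they were 0 and 1 beside 121 and 451, and without adult replicate 2 0 and 1 beside 44 and 182. Without adult replicate 3 they were 7 and 22 beside 701 and 2069.

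In fatty acid uptake and activation 1 of 17 tested genes fell, 0 rose and 16 were not called, with a median of -0.27 and 3 at an unadjusted p under 0.05. Vldlr, a receptor for triglyceride-rich lipoproteins, was at 11.53, 11.67 and 10.77 against 8.26, 6.44 and 7.07. The adult arrays lay well below the E18 arrays, and the fall of 4.07 log2 units (SE 0.52, limma adjusted p = 0.00895) lost its call when E18 replicate 1 or E18 replicate 2 was left out, with an adjusted p of up to 0.0583. Lpl, lipoprotein lipase, the brightest gene of the list, differed by -0.69 (adjusted p = 0.195).

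Among ligands, relatives and signalling partners of Cd36, 1 of 18 rose, 1 fell and 16 were not called, with a median of -0.37 and 6 at an unadjusted p under 0.05. Fyn, a Src family kinase that signals downstream of Cd36, was at 9.30, 9.37 and 9.04 against 11.55, 11.14 and 10.51. All adult arrays were above all E18 arrays, a rise of 1.83 (SE 0.35, limma adjusted p = 0.0264). Fyn is also a kinase of T cells, whose markers were higher in these arrays as given above, and their part in its value was not tested. Thbs2, a thrombospondin of the family that binds Cd36, was at 8.45, 8.41 and 7.74 against 6.62, 5.55 and 6.46 and fell by 1.98 (SE 0.45, adjusted p = 0.0480). Fyn lost its call in 6 of 16 alternatives and Thbs2 in 10, in both cases among them the removal of each array except adult replicate 3, with adjusted p of up to 0.139 and 0.244.

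Thbs2 is a matrix gene, and fibroblast markers fell in the same arrays. The 12 genes of that list summed to 64974 to 87716 in the E18 and 32988 to 47397 in the adult arrays. By limma 8 were called lower and 0 higher, with 10 at an unadjusted p under 0.05 and a median of -3.02. Their part in the Thbs2 value was not tested.

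Lipid droplet and triglyceride genes gave 0 higher, 0 lower and 22 not called by limma, with 5 at an unadjusted p under 0.05 and a median of -0.09. Plin2, which coats lipid droplets and was the brightest of the list, was at 13.17, 12.995 and 13.49 against 12.84, 13.47 and 12.70, a difference of -0.21 (adjusted p = 0.736). Dgat1, which makes triglyceride, differed by 0.02 (adjusted p = 0.989), and adult replicate 3, at 11.02, was below its other arrays.

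In mitochondrial and peroxisomal fatty acid oxidation 1 of 26 rose, 0 fell and 25 were not called, with a median of -0.11 and 8 at an unadjusted p under 0.05. Slc25a20, the carrier that moves acylcarnitines into mitochondria, was at 10.72, 10.68 and 10.74 against 12.50, 11.83 and 11.77. The E18 arrays were nearly level and the adult arrays all above them, a rise of 1.32 (SE 0.30, limma adjusted p = 0.0464). The call was lost in 10 of 16 alternatives, among them the removal of each array except adult replicate 3, with an adjusted p of up to 0.221. Hadh, an enzyme of the oxidation spiral and the brightest of the list, differed by 0.46 (adjusted p = 0.616).

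Of PPAR receptors, partners and target genes 1 of 16 fell, 0 rose and 15 were not called, with a median of -0.14 and 3 at an unadjusted p under 0.05. Angptl4, a secreted inhibitor of lipoprotein lipase and a PPAR target, was at 10.07, 9.85 and 10.71 against 8.12, 8.73 and 8.11. The adult arrays all lay below, a fall of 1.89 (SE 0.36, limma adjusted p = 0.0277). Angptl4 lost its call in 8 of 16 alternatives, with an adjusted p of up to 0.140. Among them were both other scalings and the removal of each array except adult replicate 3. Cebpb, a transcription factor of fat cell differentiation and the brightest of the list, differed by 0.18 (adjusted p = 0.876).

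**Figure D4:**
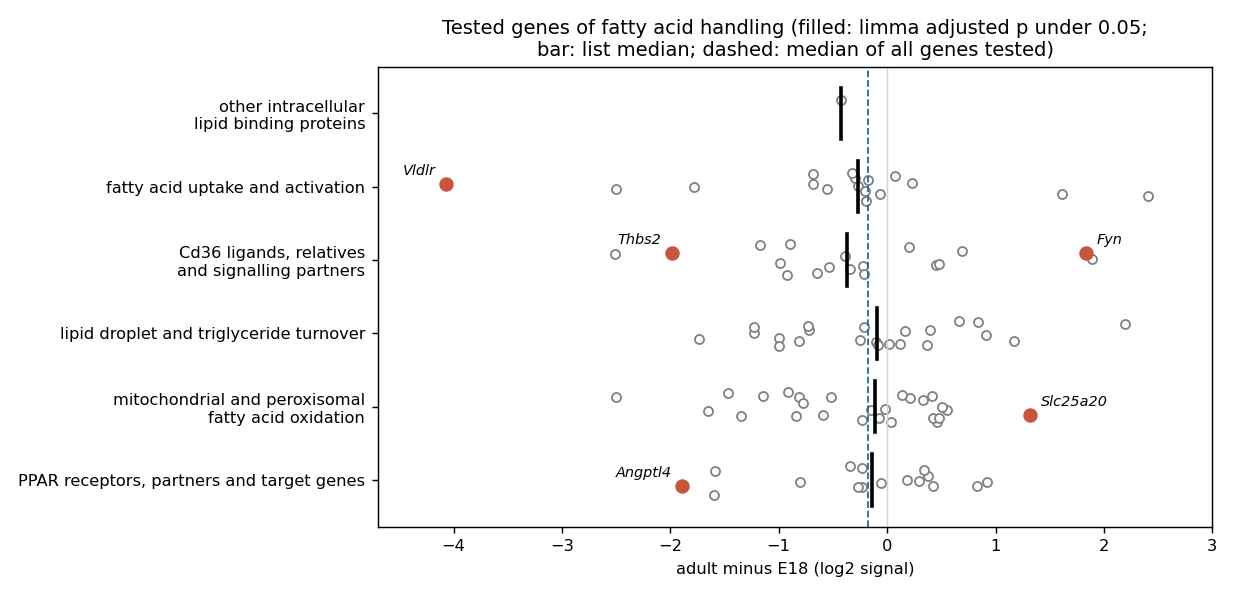
Difference in log2 signal, adult minus E18 (horizontal axis), of each tested gene in the 6 lists of fatty acid handling (rows); filled points passed the limma test, bars are list medians and the dashed line is the median of all genes tested, -0.17. The called genes are Vldlr, Thbs2 and Angptl4 to the left and Fyn and Slc25a20 to the right, and the other 95 tested genes are open points.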

How the data were processed

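Total RNA of 6 samples was amplified in 2 cycles, labelled and hybridized to 1 array each, per the labels' protocols. The deposited values are linear signal intensity per probe set, made by the authors; the submitters' processing notes name MAS5 and Affymetrix Expression Console, without versions. In the files the mean of each array without its lowest and highest 2% of values was 500.003 or 500.004, and no depth exists for arrays.

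Values were log2 transformed with no pseudocount. Probe sets with 1 gene symbol were kept, each gene took its brightest probe set, and a gene was tested if it reached its array's 40th percentile on at least 3 of 6 arrays, which left 13335 genes. Groups followed the labels (3 against 3) and were tested in R 4.3.3 by limma 3.58.1, two-sided, with an intensity trend and Benjamini-Hochberg adjustment, and called at 0.05. The labels call the samples biological replicates. The script was tested on simulated data.

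The 6 genes, the 6 pathway lists and the 13 marker lists were chosen with earlier results of these data known. Named by rule were the members, all measured lipid binding relatives, up to 3 called genes per list and direction, the brightest up to 2 where fewer than 2 were called, and the 3 nearest profiles per member. The rule also took called neighbours and, per marker list, the 2 brightest genes and any called among the first 4, most of which are not printed. Epcam, Lyz2, Muc1, Adipoq and Lep were named as defining markers, and the macrophage markers to show how they were divided. Promoters and gene order came from RefSeq (GRCm38.p6), through gene symbols and IDs, and all 6 members matched the gene table. The alternatives covered scaling, pseudocount, floor, filter, probe set choice, variance trend, replicate block and left-out arrays.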

Additional observations from a re-analysis of the deposited data

How the results depend on the processing

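The Fabp1 difference was 5.31 to 6.51 over 14 other settings, replicate 3 alone among them. Its value was 5.50 with low values raised to the floor and 5.31 with probe sets averaged. A setting chosen after seeing the data, with low values raised to the floor, gave 5.96 for replicates 1 and 2 and 4.57 for replicate 3. The other members kept their sign in 13 or 14 of the 14 planned settings. Fabp3 was 0.084 with probe sets averaged and -1.06 in replicate 3, Fabp4 0.066 in replicates 1 and 2 and -3.35 in replicate 3, Cd36 0.061 and 2.33 there, and Fabp5 -0.96 after quantile normalization and -1.02 with probe sets averaged. With 1 array left out the differences ranged from 5.78 to 6.51 for Fabp1, -0.71 to -0.43 for Fabp3, -1.68 to -0.40 for Fabp4, -0.66 to -0.0016 for Fabp5, -0.53 to 0.04 for Fabp7 and 0.37 to 1.06 for Cd36. Calls over all genes ranged from 24 to 701 higher and 42 to 2069 lower with 1 array left out, and in the pathway lists from 0 to 7 higher and 0 to 22 lower. In replicates 1 and 2 alone they were 801 and 2195, and 8 and 20 in the lists. Pathway genes called higher were 1 without the filter on low signals, with probe sets averaged and without the variance trend. The median over all genes was -0.17 as deposited, -0.05 with quantile normalization and -0.02 with each array centred on its median. The labels number replicates alike in both groups, but deviations of same-numbered arrays correlated at 0.04, -0.14 and -0.06 across genes, so the numbers were not taken as a pairing. With the replicate block 98 genes were higher and 394 lower, with 0 and 1 in the pathway lists. The causes of these shifts were not tested. Signals under the floor, as for Fabp1 at E18, limit the folds to lower bounds.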
